A study of Homo sapiens with 48 samples.

Results

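The untreated transcriptomes of 2 human pancreatic ductal adenocarcinoma lines, CAPAN-2 and PANC-1, were compared. The members are the 6 vehicle (DMSO) libraries of these lines, 3 biological replicates of each, taken by cell line and treatment label from the 48 libraries of the series. The series profiled 8 human cancer cell lines by total RNA sequencing, each with DMSO and with the proteasome inhibitor carfilzomib for 24 h, in a study of the HSP70-driven response to proteasome inhibition. Both groups compared here carried the same vehicle for the same 24 h, and each stands for 1 established line rather than for a class of tumour. The p-values measure the spread between replicates of these 2 lines only, and any difference in handling between the lines cannot be told apart from the line.

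Pancreatic ductal adenocarcinoma lines range from cells that keep an epithelial sheet, held together by the cadherin encoded by CDH1 and by tight junctions, to cells with a mesenchymal programme of vimentin and matrix proteins. The zinc-finger repressors ZEB1 and ZEB2 bind short E-box letters in epithelial promoters, and the miR-200 family targets the ZEB transcripts, so that each side of this switch represses the other. Tumours have also been sorted by transcript signatures into a classical class, with endodermal factors such as GATA6 and secreted trefoil and mucin proteins, and a basal-like class, with squamous-type keratins and cornified-envelope proteins. CAPAN-2 is generally regarded as a well differentiated line and PANC-1 as a poorly differentiated one.

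The 3 CAPAN-2 libraries held totals of 31787809 to 45865683 counts and the 3 PANC-1 libraries totals of 27901521 to 33511969 counts, over 20785 to 21587 and 21006 to 21369 genes with a count. The most abundant transcript in all 6 was the small nuclear RNA RN7SK, at 2.37% to 2.79% of counts. CAPAN-2 replicate 3, the library with the most counts, was the least like its replicates: the chi-square per degree of freedom was 15.7 and 16.2 between it and replicates 1 and 2, against 6.26 between those and 3.33 to 4.43 among the PANC-1 libraries. Levels below are in CPM, the count scaled to a common library size with TMM factors, and they compare lines for 1 gene, not genes with each other, since they are not divided by transcript length. A gene was called when the adjusted p of edgeR's quasi-likelihood test (Benjamini-Hochberg over all genes tested) was under 0.05. All changes are given as CAPAN-2 minus PANC-1 on the log2 scale, so that a positive value is higher in CAPAN-2.

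The lines differed at most of the genes they express. Of 17658 genes tested, 80.1% were called, 7043 higher in CAPAN-2 (39.9%) and 7093 lower (40.2%), and the median size of the difference was 0.814 on the log2 scale. Without CAPAN-2 replicate 3, 7126 genes were higher and 7251 lower. With a change of at least 2-fold also required, 3730 genes were higher (21.1%) and 3759 lower (21.3%). A call is therefore the usual outcome for a gene here, and the counts for each group of genes below are to be read against these shares. The other untreated pairs of the series gave shares of the same order: 78.6% of genes were called between the colon lines RKO and DLD-1, 80.2% between the lung lines H-1299 and H-23, and 82.0% between the myeloma lines H929 and RPMI. Differences of at least 2-fold covered 42.4% of genes tested in the pancreatic pair, 44.9% in the colon pair, 41.5% in the lung pair and 50.8% in the myeloma pair. With every library thinned to the lowest total of these pairs, 12649819 counts, these shares were 41.1%, 43.8%, 38.8% and 49.8%.

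Genes of epithelial adhesion and polarity were higher in CAPAN-2 almost without exception. Of 30 members tested, 29 were higher and none lower, 26 of them by at least 2-fold, with a median of 3.93. CDH1, the adherens-junction cadherin (chr16:68737225-68835548, GRCh38, GENCODE 29 positions), was at 1120, 1191 and 1250 CPM in CAPAN-2 and 52.2, 50.9 and 49.6 CPM in PANC-1. EPCAM, an epithelial adhesion molecule, was at 875, 911 and 931 CPM against 37.7, 30.4 and 33 CPM. Both genes were thus present in every library of both lines, with ranges far apart, and were higher in CAPAN-2 by 4.54 (SE 0.064, adjusted p = 7.1e-15) and 4.75 (SE 0.079, adjusted p = 2.3e-14). The membrane protease gene ST14 was at 1217, 1382 and 1426 CPM against 3.05, 3 and 2.69 CPM, a difference of 8.85. The trafficking and adhesion genes MAL2 (10.29), MPZL2 (7.72) and the protease gene PRSS8 (7.42) were also higher in CAPAN-2 in all libraries. CLDN4, a tight-junction claudin, showed a smaller difference: it was at 903 to 1021 CPM in CAPAN-2 and 211 to 235 CPM in PANC-1. The 1 member without a call, OCLN, has several entries under its name and is uncertain.

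**Figure D1:**
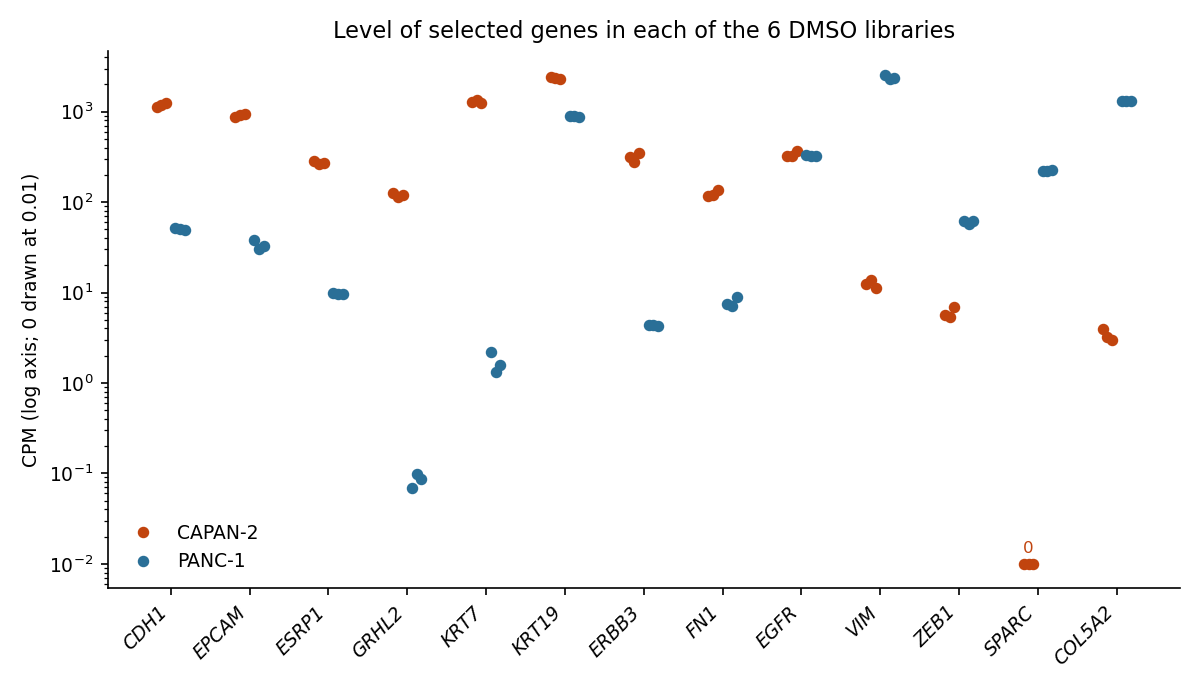
Level of 13 genes in each of the 6 DMSO libraries, in CPM on a log axis, with a level of 0 drawn at 0.01. Each point is 1 library: CDH1, EPCAM, ESRP1, GRHL2, KRT7, KRT19 and ERBB3 lie higher in CAPAN-2, VIM, ZEB1, SPARC and COL5A2 higher in PANC-1, FN1 higher in CAPAN-2, and the EGFR points of both lines fall between 320 and 366 CPM.

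The plot of levels by library shows that replicates of a line lie close together compared with the distance between the lines, with EGFR as the exception. Among the epithelial genes, KRT19 and CDH1 lie well above 0 in PANC-1, whereas KRT7 and GRHL2 are near it.

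The sequences just upstream of 3 of these genes are shown because their promoters hold the E-box letters to which ZEB proteins, among others, bind. Each is the 250 bases before the transcription start, read 5′ to 3′ on the gene's strand (RefSeq, GRCh38.p14), with every CACCTG or its reverse complement CAGGTG in capitals, a form of the E-box CANNTG. CRB3 encodes an apical polarity protein (chr19:6464021-6464270, plus strand), AP1M2 an epithelial sorting adaptor (chr19:10587313-10587562, minus strand) and RAB25 an epithelial recycling GTPase (chr1:156060910-156061159, plus strand).
CRB3: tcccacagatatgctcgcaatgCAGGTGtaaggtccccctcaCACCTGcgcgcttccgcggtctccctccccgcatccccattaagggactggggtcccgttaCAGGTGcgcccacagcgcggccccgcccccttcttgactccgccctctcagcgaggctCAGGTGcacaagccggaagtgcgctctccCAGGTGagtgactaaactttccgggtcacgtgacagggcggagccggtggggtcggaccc
AP1M2: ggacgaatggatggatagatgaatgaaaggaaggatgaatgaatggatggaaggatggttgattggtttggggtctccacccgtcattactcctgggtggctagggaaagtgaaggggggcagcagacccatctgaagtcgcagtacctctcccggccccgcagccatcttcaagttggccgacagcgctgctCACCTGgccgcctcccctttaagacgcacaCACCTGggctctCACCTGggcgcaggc
RAB25: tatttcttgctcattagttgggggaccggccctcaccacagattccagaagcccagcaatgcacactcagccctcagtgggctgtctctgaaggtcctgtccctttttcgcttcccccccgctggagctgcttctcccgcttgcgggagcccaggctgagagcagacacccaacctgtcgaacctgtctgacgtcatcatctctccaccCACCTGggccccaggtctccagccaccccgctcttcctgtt
CRB3 held 5 copies of these letters, AP1M2 held 3, and RAB25 held 2 in its window of 300 bases, of which 1 lies in the stretch printed. CRB3 was at 17.5, 20.8 and 17.8 CPM in CAPAN-2 against 0.139, 0.131 and 0.0866 CPM in PANC-1, AP1M2 at 76.3, 80.4 and 68.4 against 2.7, 2.71 and 3.15 CPM, and RAB25 at 58.3, 60.5 and 58.5 against 0.312, 0.261 and 0.202 CPM. All 3 genes were higher in CAPAN-2, by 7.28 (SE 0.199), 4.71 (SE 0.093) and 7.84 (SE 0.112). Over windows from 250 bases before to 50 after the start, 9 of the 16 adhesion genes with a promoter in the table (56.2%) held CACCTG on either strand, and 6 (37.5%) held it more than once. The same letters occurred in 20.6% of all 27305 promoters, in 19% of the 12030 promoters of genes tested here, in 3 of 10 promoters of epithelial regulators (30%) and in 2 of 21 promoters of mesenchymal and matrix genes (9.52%). Promoters with several copies also belonged to PATJ, which held 3 and was higher in CAPAN-2 by 0.73, and to GRHL3, which held 2 and was lower (-3.79). Epithelial genes with 0 copies were higher in CAPAN-2 too, among them EHF (9.37), KLF5 (6.78), TJP3 (4.79) and CLDN7 (4.15), while TFAP2A, also with 0 copies, was lower (-0.97). No promoter sequence was available for CDH1, EPCAM or GRHL2. A link between copies and the difference was not tested. A match is a description of letters; no binding was measured.

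Regulators of the epithelial state mostly followed the adhesion genes. Of 18 tested, 15 were higher in CAPAN-2 and 3 lower, with a median of 4.51. GRHL2, a grainyhead transcription factor of epithelia, was at 125, 114 and 120 CPM in CAPAN-2 and 0.0692, 0.0978 and 0.0866 CPM in PANC-1, a difference of 10.40 (SE 0.123, adjusted p = 2.8e-15). The splicing regulator gene ESRP1 was at 284, 265 and 269 CPM against 9.83, 9.69 and 9.7 CPM, a difference of 4.81. Neither gene's ranges overlapped between lines, but ESRP1 kept a measurable level in PANC-1 where GRHL2 did not rise above 0.1 CPM. The epithelial transcription factors EHF (9.37), KLF5 (6.78), OVOL1 (6.36), OVOL2 (5.79) and ELF3 (3.55) were higher in CAPAN-2 as well. The 3 genes lower in CAPAN-2 were GRHL3 (-3.79), a paralogue of GRHL2, and the AP-2 factors TFAP2C (-3.17) and TFAP2A (-0.97).

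MIR200CHG, the host transcript of miR-200c and miR-141, was at 6.76, 4.9 and 7.31 CPM in CAPAN-2, while the 3 PANC-1 libraries were at 0, 0.0652 and 0 CPM (adjusted p = 4.4e-09). MIR99AHG, which hosts miR-99a, went the other way, at 0 CPM in all CAPAN-2 libraries and 3.29, 3.13 and 3.03 CPM in PANC-1. MIR100HG, which hosts miR-100 and miR-125b-1, was at 0.825, 1.18 and 0.805 CPM against 11.5, 9.82 and 10.9 CPM, a difference of -3.53 (SE 0.181, adjusted p = 1.1e-09). The mature sequences these hosts carry are shown because those of the transcripts higher in CAPAN-2 and those higher in PANC-1 have different seeds (RefSeq, GRCh38.p14; bases 2 to 8 in capitals).
hsa-miR-200c-3p: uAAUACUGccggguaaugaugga
hsa-miR-141-3p: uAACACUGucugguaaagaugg
hsa-miR-99a-5p: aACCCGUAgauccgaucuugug
hsa-miR-100-5p: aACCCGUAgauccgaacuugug
hsa-miR-125b-5p: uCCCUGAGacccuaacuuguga
miR-99a-5p and miR-100-5p share a seed although their hosts lie on chromosomes 21 and 11, and the seeds of miR-200c-3p and miR-141-3p differ by a single base. Only the host transcripts were measured, not the mature miRNAs. Of 11 host transcripts tested, 5 were higher and 4 lower in CAPAN-2; MIR31HG (2.33) and MIR17HG (1.65), the host of the miR-17-92 cluster, were among those higher.

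Mesenchymal and matrix genes were mixed, not uniformly higher in PANC-1. Of 28 tested of 34 listed, 18 were lower in CAPAN-2 and 9 higher, with a median of -1.31. VIM, the intermediate filament of mesenchymal cells (chr10:17228259-17237593), was at 12.6, 13.9 and 11.2 CPM in CAPAN-2 and 2531, 2317 and 2360 CPM in PANC-1, a difference of -7.59 (SE 0.089, adjusted p = 2.7e-15). SPARC, a secreted matrix-binding protein, had no count in CAPAN-2 and was at 223, 222 and 227 CPM in PANC-1, at least 2737-fold lower in CAPAN-2 when 3 counts per library are allowed there. The fibrillar collagen gene COL5A2 was at 3.96, 3.22 and 2.95 CPM against 1314, 1322 and 1319 CPM. These 3 genes set the lines apart in every library. The collagen gene COL3A1 was at 153, 143 and 148 CPM in PANC-1 with 1 count in all CAPAN-2 libraries together, and the gelatinase gene MMP2 was lower in CAPAN-2 (-8.45). The neural cadherin gene CDH2, often set against CDH1, differed by -2.51 and was still at 12 to 16.2 CPM in CAPAN-2.

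Against that direction, FN1, which encodes the matrix protein fibronectin, was at 117, 119 and 135 CPM in CAPAN-2 and 7.37, 7.14 and 8.92 CPM in PANC-1. It was higher in CAPAN-2 by 3.98 (SE 0.090, adjusted p = 3.6e-13), with no overlap. The matrix and adhesion genes FSTL1 (4.5), TNC (3.57) and TGFBI (2.37), the membrane metalloprotease gene MMP14 (2.63) and TAGLN (2.09) were also higher in CAPAN-2. AXL, a receptor kinase often listed with mesenchymal genes, was at 490, 544 and 561 CPM in CAPAN-2 and 270, 232 and 236 CPM in PANC-1, higher by 1.11.

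Among 13 mesenchymal regulators tested, 7 were lower in CAPAN-2 and 4 higher. ZEB1 was at 5.64, 5.36 and 6.98 CPM in CAPAN-2 and 61.3, 57.9 and 61.9 CPM in PANC-1, a difference of -3.32 (SE 0.087, adjusted p = 1.5e-12). ZEB2 was near the floor of detection in both lines, at 0.266 to 0.537 CPM against 1 to 1.18 CPM (-1.5). SNAI1 differed by -2.30 and the splicing regulator QKI by -2.01. The snail paralogue SNAI2 had the opposite pattern to SNAI1: it was at 9.58, 9.64 and 7.83 CPM in CAPAN-2 and had no count in PANC-1. The forkhead genes split in the same manner, with FOXC2 at 0 CPM in all CAPAN-2 libraries and 5.19, 4.6 and 4.5 CPM in PANC-1, and FOXC1 higher in CAPAN-2 (1.5). The transcription factor genes TCF4 (2.16) and ETS1 (1.52) were higher in CAPAN-2.

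**Figure D2:**
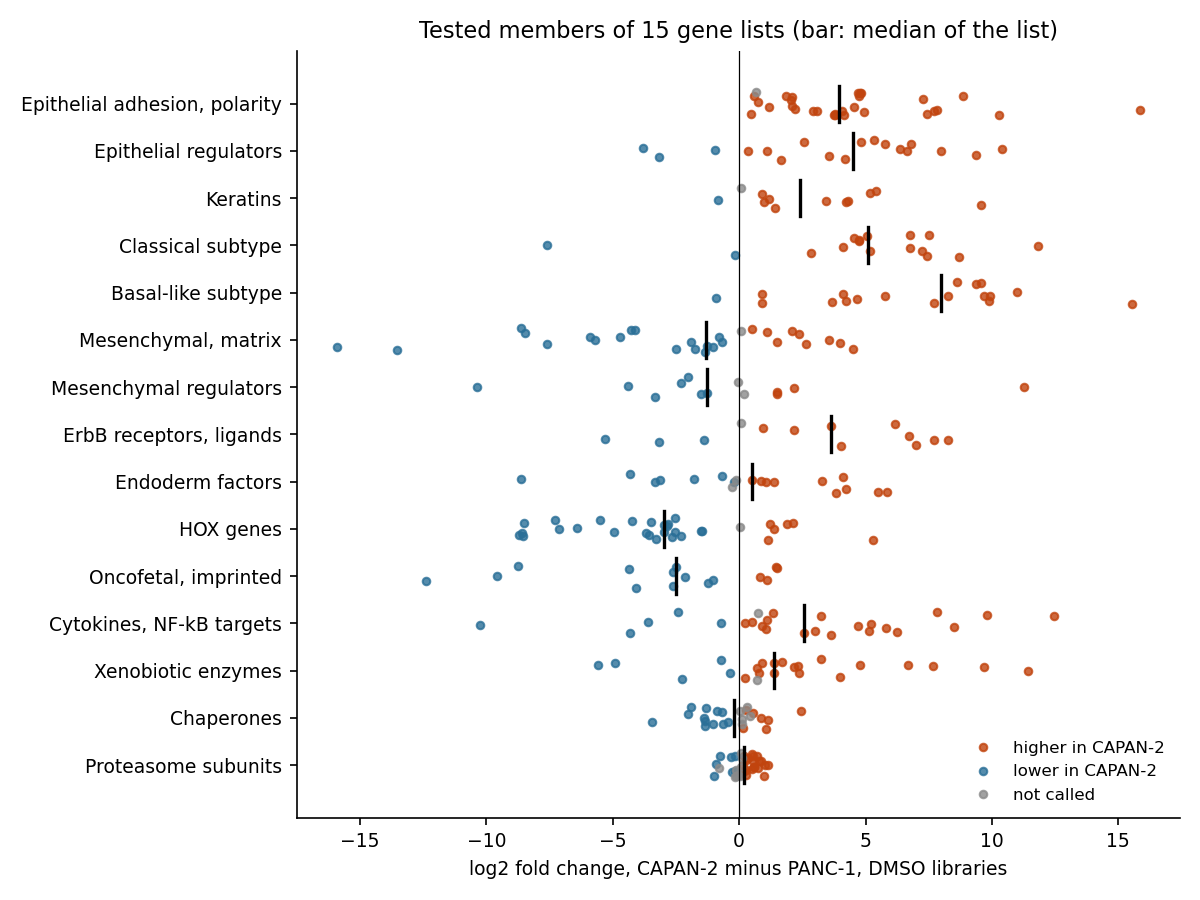
Difference between the lines (log2, CAPAN-2 minus PANC-1) for every tested member of 15 gene lists, 1 point per gene, with a bar at the median of the list. The epithelial, keratin, classical and basal-like lists lie mostly to the right of 0, with medians of 3.93, 4.51, 2.43, 5.10 and 7.99, and the HOX list mostly to the left, with a median of -2.96; the fitted value of a gene with no count in 1 line is no bound.

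Keratins and both tumour-class signatures were higher in CAPAN-2. Of 12 keratins tested of 19 listed, 10 were higher and 1 lower. KRT7, a simple-epithelial keratin of ducts, was at 1267, 1356 and 1242 CPM in CAPAN-2 and 2.18, 1.34 and 1.59 CPM in PANC-1, a difference of 9.57. KRT19, the other common duct keratin, was at 2390, 2354 and 2289 CPM against 892, 902 and 867 CPM, a difference of 1.40 (SE 0.049, adjusted p = 2.3e-11). So the duct keratins were both higher in CAPAN-2, but PANC-1 kept a high level of KRT19 and hardly any KRT7. The pair KRT8 and KRT18, simple-epithelial partners, was higher by 0.97 and 1.2. KRT16 (5.39) and KRT17 (4.21), squamous-type keratins with near-identical relatives, are uncertain. KRT5, KRT14 and KRT6A were at 0 or nearly so in both lines and could not be tested.

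Of the classical signature, 14 of 16 tested members were higher in CAPAN-2 and 2 lower, with a median of 5.10, or 4.74 with genes at 0 in 1 line set at their bound. Of the basal-like signature, 17 of 18 were higher and 1 lower, with a median of 7.99, or 6.74 with such genes at their bound. The signatures therefore did not sort the lines to opposite sides. On the classical side, the trefoil gene TFF2 was at 59.1, 64.2 and 56.9 CPM in CAPAN-2 and 0.554, 0.652 and 0.462 CPM in PANC-1 (6.75), and the adhesion gene CEACAM6, which has near-identical relatives, was at 12, 13.4 and 14.4 CPM in CAPAN-2 with no count in PANC-1. TFF3 went against its group, at 3.32 to 4.82 CPM in PANC-1 and at most 0.0658 CPM in CAPAN-2, and AGR2, a disulfide isomerase of secretory cells, was high in both lines, at 301 to 313 CPM and 338 to 349 CPM (-0.15, adjusted p = 0.0096). On the basal-like side, SCEL, a cornified-envelope precursor, was at 179, 170 and 169 CPM in CAPAN-2 with no count in PANC-1, at least 1797-fold higher. The long noncoding RNA UCA1 (9.38), the protease inhibitor gene CST6 (10.97) and the growth-factor-binding gene FGFBP1 (9.87) were also higher, and the protease gene CTSV was the 1 basal-like member lower in CAPAN-2 (-0.90). S100A2 was higher by 0.91 from low levels in both, 3.57 to 4.16 CPM and 1.8 to 2.38 CPM. Of mucins, 5 of 14 could be tested: MUC1 (5.09) and MUC16 (3.10), membrane mucins, and MUC13 were higher, and MUC5B (-0.75) and MUC12 (-0.96) lower.

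Transcription factors of endoderm and pancreas moved in both directions. Of 19 tested, 10 were higher in CAPAN-2 and 7 lower, with a median of 0.49. HNF4A, a nuclear receptor of foregut and liver epithelia, was at 12.8, 12.5 and 14 CPM in CAPAN-2 and 0.208, 0.261 and 0.202 CPM in PANC-1. GATA6, which marks classical tumours, was at 15.6, 16.6 and 16.2 CPM against 0.104, 0.457 and 0.491 CPM, a difference of 5.48 (SE 0.258, adjusted p = 4.8e-10). FOXA2, a pioneer factor of endoderm, had the reverse order, at 1.89, 1.65 and 2.17 CPM against 39.6, 39.4 and 36.4 CPM, a difference of -4.32. Each of the 3 genes separated the lines without overlap. The HNF4A paralogue HNF4G (3.27), and FOXA3 (3.83), ISL1 (4.11) and PAX6 (4.23) were higher in CAPAN-2, and HHEX (-3.15) and the acinar nuclear receptor gene NR5A2 (-1.79) lower. SOX9, the duct progenitor factor, was close in both lines, at 51.5 to 57.5 CPM and 59.5 to 67.1 CPM (-0.20, adjusted p = 0.012), and its call was lost without CAPAN-2 replicate 2 (adjusted p = 0.058) or without PANC-1 replicate 2 (adjusted p = 0.064). PDX1, the pancreatic master factor, was at about 1 CPM in both lines and was not called (-0.13, adjusted p = 0.7).

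The HOX genes, which record position along the body axis, were lower in CAPAN-2 in 24 of 31 tested and higher in 6, with a median of -2.96, or -2.85 with genes at 0 in 1 line set at their bound. HOXB2 was at 0.133, 0.0987 and 0.157 CPM in CAPAN-2 and 52.2, 51.9 and 51.4 CPM in PANC-1. HOXB7 was at 0.132 to 0.266 CPM against 32.5 to 34.5 CPM, and HOXC10 at 0 to 0.329 CPM against 47.7 to 51.1 CPM. HOXB2, HOXB7 and HOXC10 were thus close to silent in CAPAN-2, but other members of these clusters were not. HOXB3 had means of 56 CPM in CAPAN-2 and 278 CPM in PANC-1, HOXB6 18.8 and 136 CPM, and HOXC9 5.67 and 39.5 CPM. All 6 genes higher in CAPAN-2 were in the HOXA cluster: HOXA10 (5.28), HOXA3 (2.14), HOXA6 (1.9), HOXA5 (1.21) and HOXA11 (1.13) were among them.

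**Figure D3:**
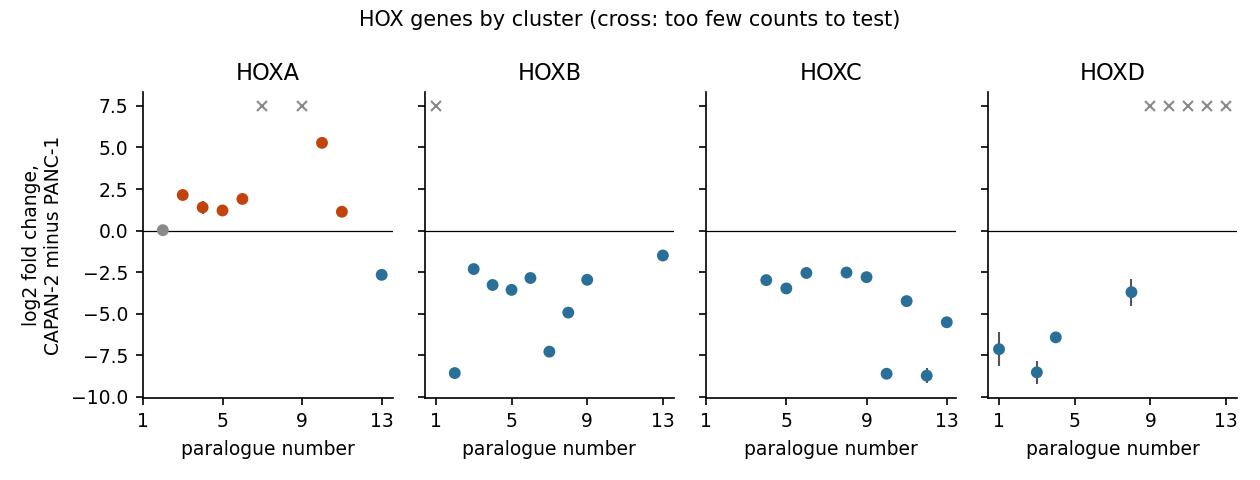
Difference between the lines (log2, CAPAN-2 minus PANC-1, bars are the SE of the fit) for HOX genes against their paralogue number, 1 panel per cluster, orange called higher, blue called lower and grey not called. Crosses at the top mark genes with too few counts to test; the 6 genes called higher in CAPAN-2 are all in the HOXA panel, from HOXA11 at 1.13 to HOXA10 at 5.28.

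Growth-factor signalling genes differed more at the ligands than at the main receptor. EGFR was at 324, 322 and 366 CPM in CAPAN-2 and 328, 320 and 325 CPM in PANC-1, and was not called (0.06, SE 0.058, adjusted p = 0.37). ERBB3, the kinase-impaired partner receptor, was at 314, 280 and 349 CPM against 4.4, 4.34 and 4.24 CPM, a difference of 6.18. TGFA, an EGFR ligand, was at 240, 261 and 232 CPM against 2.01, 2.51 and 2.34 CPM, a difference of 6.73. The lines thus overlapped at EGFR and were far apart at its partner and its ligand. The further EGFR ligand genes EREG (7.01), AREG (7.72), BTC (8.28) and HBEGF (4.03) were higher in CAPAN-2, as was ERBB2 (0.96). The neuregulin gene NRG1 (-3.16), the receptor gene ERBB4 (-5.30) and the feedback inhibitor gene ERRFI1 (-1.40) were lower. Of 13 members tested, 9 were higher and 3 lower.

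Of 22 other receptor tyrosine kinase genes, 10 were higher in CAPAN-2 and 11 lower. MET, the hepatocyte growth factor receptor, was at 1711, 1719 and 1804 CPM in CAPAN-2 and 282, 252 and 260 CPM in PANC-1 (2.72). RET, the receptor for GDNF-family ligands, held at most 3 counts in a CAPAN-2 library and was at 113, 132 and 138 CPM in PANC-1. These are opposite patterns at high levels. MST1R (3.14), EPHA4 (3.30) and INSR (3.04) were higher, and FGFR3 (-4.21), FGFR1 (-3.35), MERTK (-3.25), TYRO3 (-2.86) and ROR2 (-7.45) lower. Feedback genes of the MAPK pathway were split, 7 of 17 higher and 9 lower: the phosphatase gene DUSP4 was at 104, 104 and 98.0 CPM in CAPAN-2 and at most 0.0577 CPM in PANC-1, DUSP5 (2.91), EMP1 (4.19) and the cyclin gene CCND1 (2.54) were higher, and DUSP6 (-0.70), SPRY1 (-1.65), SPRY4 (-1.64) and ETV5 (-1.52) lower.

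In the TGF-beta and BMP pathway, 13 of 31 genes tested were higher in CAPAN-2 and 16 lower, with a median of -0.23. At the receptors, TGFBR2 was at 199, 194 and 198 CPM in CAPAN-2 and 50.3, 49.4 and 52.6 CPM in PANC-1 (1.96, SE 0.051, adjusted p = 1.3e-12). SMAD4, the common mediator, was at 31.2, 27.8 and 34.6 CPM against 64.2, 63.6 and 64.4 CPM (-1.03, SE 0.072, adjusted p = 2.5e-08), and SMAD3 differed by -1.10. The receptor was thus higher in CAPAN-2, and SMAD4 and SMAD3 lower, each without overlap. Among ligands, BMP4 was higher in CAPAN-2 (8.34), as were TGFB2 (1.47) and BMP2 (4.98), and GDF15 (-3.17), INHBB (-3.36) and BMP7 (-1.75) were lower. In the YAP and TEAD pathway, 11 of 20 were higher and 8 lower; the target genes disagreed, with CCN1 (-4.74) and CCN2 (-3.62) lower and ANKRD1 (5.52) higher, while the coactivator gene YAP1 differed by 0.29, its paralogue WWTR1 by -1.88 and the TEAD cofactor VGLL1 was near absent in PANC-1. Of 23 WNT genes, 12 were higher and 10 lower. The feedback targets AXIN2 (3.45), RNF43 (2.62) and NKD1 (3.49) were higher in CAPAN-2, and the ligand gene WNT7A was at 30.3, 29.3 and 28.2 CPM there with no count in PANC-1, and the secreted antagonists DKK1 (-2.55) and DKK3 (-4.70) and the receptor gene LGR5 (-2.26) were lower.

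On chromosome 9p21, 3 of the 14 listed genes tested had no count in PANC-1. CDKN2A, which encodes the inhibitors p16 and p14ARF (chr9:21967753-21995301, GRCh38), was at 145, 156 and 136 CPM in CAPAN-2 and had no count in any PANC-1 library, at least 1515-fold higher in CAPAN-2. Its neighbour CDKN2B was at 40, 36.7 and 35.9 CPM against no count, and the antisense RNA CDKN2B-AS1, which overlaps CDKN2B and is uncertain for that reason, had a mean of 13.1 CPM against no count. MTAP, the methylthioadenosine phosphorylase next to them, was at 76.7, 79.5 and 72.9 CPM against 12.5, 12.3 and 12.3 CPM, lower in PANC-1 but not absent (2.63, SE 0.061). MTAP and the other listed genes tested had counts in both lines. Farther out, MLLT3 (4.39), MIR31HG (2.33) and FOCAD (1.48) were higher in CAPAN-2, and DMRTA1 (-3.97) and PLIN2 (-1.27) lower. Outside the list but on the same arm, chosen after their values were seen, CNTLN had a mean of 18.8 CPM in CAPAN-2 and no count in PANC-1, and BNC2 no count in CAPAN-2 and a mean of 6.23 CPM in PANC-1. Of the 14 listed genes tested, 11 were higher and 2 lower. DNA copies were not measured.

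**Figure D4:**
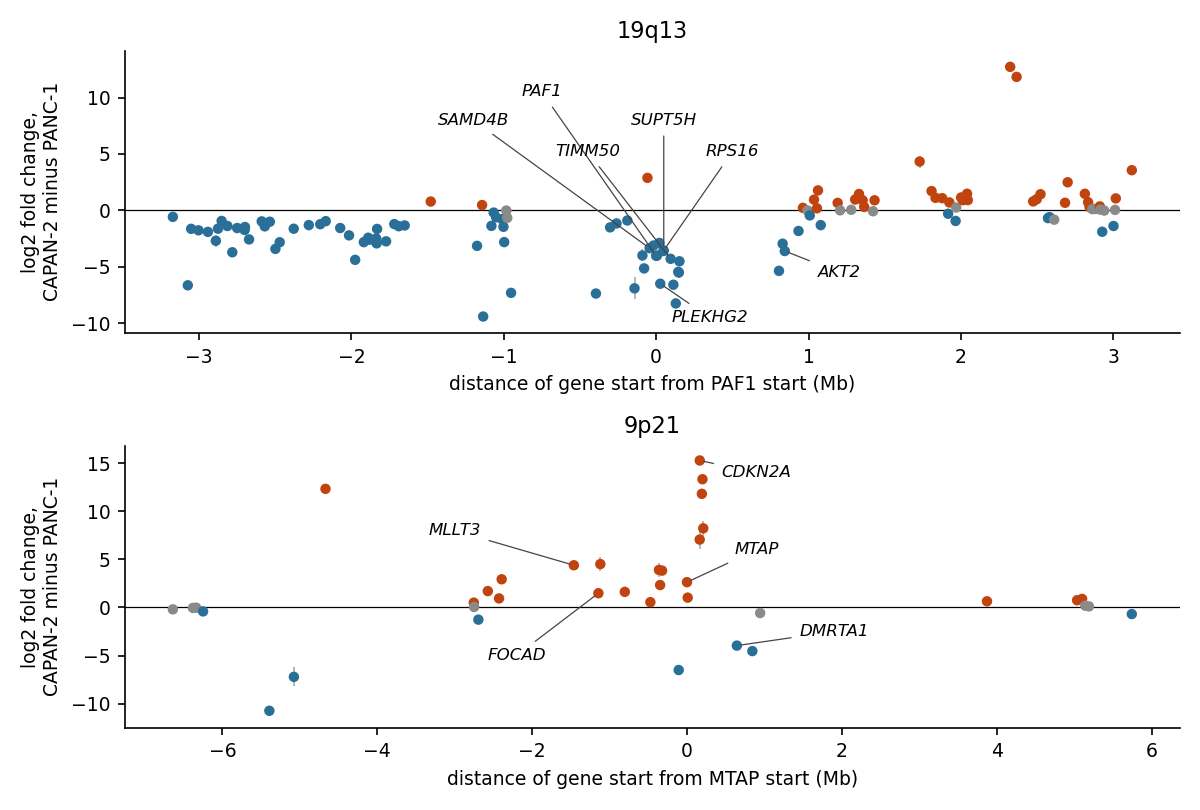
Difference between the lines (log2, CAPAN-2 minus PANC-1, bars are the SE of the fit) against distance in Mb from the start of PAF1 on chromosome 19 and from the start of MTAP on chromosome 9, orange called higher, blue called lower and grey not called. The 17 tested genes from SAMD4B to AKT2 lie between -8.26 and -2.89; near MTAP, the genes with no count in PANC-1 lie far above 0 and DMRTA1 below it.

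Neighbouring genes on chromosome 19q13 were lower in CAPAN-2. Of 16394 windows of 25 neighbouring tested genes, the one with the lowest median ran from RASGRP4 to MAP3K10 (chr19:38409051-40215575), with 23 genes lower, 1 higher and a median of -4.03. Within and just past it, the ends of a narrower stretch were set by the values, between GMFG, which was higher in CAPAN-2 (2.88), and C19orf47 (-1.83), so that the count within is fixed by the choice and is a description. In this stretch of 0.943 Mb, from SAMD4B to AKT2 (chr19:39342396-40285536, GRCh38, GENCODE 29 positions), all 17 genes tested were lower by at least 2-fold, between -8.26 and -2.89, with a median of -4.03. The 25 tested genes before this stretch had a median of -1.38 with 20 lower, and the 25 after it 0.30 with 5 lower and 15 higher. PAF1, a subunit of the elongation complex named after it, had a mean of 64.1 CPM in CAPAN-2 and 1049 CPM in PANC-1. The elongation factor gene SUPT5H was at 129 CPM against 1525 CPM, the mitochondrial import gene TIMM50 at 58 CPM against 1138 CPM and the kinase gene AKT2 at 153 CPM against 1866 CPM. PANC-1 held the highest level of the first 3 among the 8 lines of the series. With the 24 untreated libraries scaled together, PAF1 was at 1041 CPM in PANC-1 and 49.5 to 205 CPM in the other lines, SUPT5H at 1513 against 131 to 379 CPM, and TIMM50 at 1130 against 54 to 304 CPM. Another window with a low median, on chromosome 14, ran from VRK1 to DIO3 and held MEG3. It was mixed, with 15 genes lower and 8 higher (median -3.47). A window from TIMM10B to STK33 on chromosome 11 had 24 genes lower and none higher (median -3.23). In the protocadherin alpha and beta cluster on chromosome 5, 25 of 25 tested genes were lower (median -2.97). Near-identical paralogues make single genes there uncertain. The window of the HOXB region on chromosome 17 had 20 genes lower and 5 higher (median -2.62). The window with the highest median ran from CTTNBP2 to LINC02830 on chromosome 7 (median 3.57). Over whole chromosomes the medians ranged from 0.82 on chromosome 4, 0.75 on chromosome 13 and 0.65 on chromosome 14 to -0.48 on chromosome 17 and -0.73 on chromosome 6, against -0.01 for all genes.

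The genes with the largest differences in either direction were detected in 1 line alone. KLK6, a kallikrein protease gene (chr19:50958631-50969673), had a mean of 784 ± 51.9 CPM (SD, n = 3) in CAPAN-2 and no count in PANC-1, at least 8161-fold higher, and TMPRSS4, a membrane serine protease gene, was at least 6511-fold higher. LDHB, the heart-type lactate dehydrogenase subunit (chr12:21635342-21757857), had no count in CAPAN-2 and a mean of 408 ± 11.1 CPM (SD, n = 3) in PANC-1, at least 4987-fold lower in CAPAN-2. Among the 8 lines, CAPAN-2 was alone in this: LDHB ranged from 345 to 1485 CPM in the other 7. Further genes with no count in PANC-1 included the protease inhibitor genes SLPI (at least 1754-fold higher) and SERPINB5 (at least 1166-fold) and ZBED2 (at least 1038-fold). The histone gene H3C7, TMEM125 and TMEM168 had the same pattern, H3C7 being uncertain because of near-identical histone genes. Genes with no count in CAPAN-2 included the collagen gene COL11A1 (at least 3217-fold lower), the DNA-damage restriction factor gene SLFN11 (at least 1285-fold), EPHA7 (at least 1056-fold), the neurotensin gene NTS (at least 1014-fold) and BASP1 (at least 937-fold), and also SLFN12, MPDZ, SPART, GATA5 and MEG8. FGF19, an endocrine fibroblast growth factor gene, had a mean of 425 CPM in CAPAN-2 with at most 3 counts in a PANC-1 library, and the next highest line of the 8 was at 0.826 CPM. MACC1, an activator of MET transcription, had a mean of 325 CPM with at most 1 count in PANC-1.

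By a rule of at most 3 counts in every library of 1 line and at least 50 in every library of the other, 233 genes were silent in PANC-1 and 212 in CAPAN-2. Of these, 103 and 99 had no count at all. A count of 0 allows up to 3 counts per library, a mean of 0.0961 CPM in PANC-1 and 0.0819 CPM in CAPAN-2. Under carfilzomib, 185 of the 233 and 164 of the 212 stayed at or below these levels in every library of the silent line. The level in the other line was not part of that count.

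Cytokine and NF-kB target genes were mostly higher in CAPAN-2, while interferon-stimulated genes were divided. Of 25 cytokine and NF-kB targets tested, 19 were higher and 5 lower, with a median of 2.58. LCN2, a siderophore-binding lipocalin, was at 1420, 1254 and 1550 CPM in CAPAN-2 and 0.312, 0.228 and 0.202 CPM in PANC-1 (12.47). CXCL8, a neutrophil chemokine, was at 15.7, 18.2 and 13.4 CPM against 0.658, 0.489 and 0.664 CPM (4.69). CSF1, a macrophage growth factor, was at 6.65, 7.47 and 7.33 CPM against 141, 143 and 141 CPM (-4.31). The secreted factors thus split by gene: the further chemokine genes CXCL2 (5.23) and CXCL5 (5.81) were higher in CAPAN-2, and CCL2, at 24.9 to 27.1 CPM in PANC-1 with 2 counts or fewer in each CAPAN-2 library, and the adhesion gene ICAM1 (-3.59) lower. CD274, which encodes PD-L1, was at 12, 15.9 and 13.5 CPM in CAPAN-2 and 0.277, 0.0652 and 0.116 CPM in PANC-1, and CD74, the invariant chain, was higher by 6.37. Of 13 antigen-presentation genes tested, 10 were higher and 3 lower, but 15 of the 22 listed have several entries under 1 identifier, so that their counts are split. With the entries summed, HLA-B (125 against 25.6 CPM), HLA-C (345 against 90.1 CPM) and B2M (279 against 126 CPM) were higher in CAPAN-2, HLA-B and HLA-C being uncertain because they resemble each other. Of 28 interferon-stimulated genes, 14 were higher and 10 lower: BST2 (4.38), OAS1 (3.53) and IFI44 (3.39) were higher, and IFIT1 (-2.22), OASL (-1.80) and IFIT2 (-1.2) lower.

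Cell-cycle and p53-target genes were called in both directions. Of 32 cell-cycle genes, 18 were higher in CAPAN-2 and 9 lower, with a median of 0.34; 6 (18.8%) and 2 (6.25%) passed 2-fold, against 21.1% and 21.3% of all genes tested. MKI67 was at 488, 483 and 509 CPM in CAPAN-2 and 271, 261 and 261 CPM in PANC-1 (0.9), whereas TOP2A was not called (-0.04). CCNA2 (1.56) and PCNA (1.16) were higher, and BIRC5 (-1.2) lower. The cyclin gene CCND2 was lower by far more, with a fitted difference of -9.52 to -9.33 when each library was left out in turn. Of 28 p53 targets, 14 were higher and 12 lower, 5 (17.9%) and 4 (14.3%) by at least 2-fold. CDKN1A, the p21 inhibitor, was at 26.4, 33.5 and 25.9 CPM against 15.7, 17.8 and 19 CPM (0.7, SE 0.105, adjusted p = 4e-05). MDM2, the p53 ligase, was at 105, 97.5 and 92.9 CPM against 169, 182 and 182 CPM (-0.85, SE 0.057, adjusted p = 1.8e-08). These classic targets therefore lay on opposite sides, each without overlap. PHLDA3 (3.33) and FAS (1.86) were higher, and TP53INP1 (-2.49) and RRM2B (-1.65) lower.

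Chaperone genes, on which the series centres, differed in both directions, and proteasome subunits differed by small amounts. HSPA8, the constitutive HSP70, was at 2055, 2164 and 1899 CPM in CAPAN-2 and 2048, 1973 and 2028 CPM in PANC-1, and was not called (0.02, SE 0.056, adjusted p = 0.8). The inducible genes HSPA1A and HSPA1B, which are near-identical and have 8 entries between them, were summed and are uncertain: the sum was at 4.47, 1.78 and 3.13 CPM in CAPAN-2 and 12.6, 3.26 and 5.08 CPM in PANC-1. These ranges overlap, and the sum differed by -1.14 (SE 0.424, adjusted p = 0.0255). Under carfilzomib it was at 43.8, 22.4 and 23.3 CPM in CAPAN-2 and 7.32, 6.49 and 5.04 CPM in PANC-1, higher in CAPAN-2 by 2.26 (SE 0.222, adjusted p = 2.04e-07). Of 24 chaperone genes tested in DMSO, 7 were higher in CAPAN-2 and 12 lower, beside 39.9% and 40.2% of all genes tested. HSPA2 (2.44), HSPB1 (1.16) and HSP90AA1 (1.06) were higher and HSF2 (-2.03), the cochaperone gene BAG3 (-1.9), DNAJA1 (-1.33) and HSP90AB1 (-1.30) lower. Of 36 proteasome subunits, 20 were higher and 7 lower, with a median of 0.19 and 3 past 2-fold in all. PSMB5, the subunit that carfilzomib binds, was at 131, 136 and 116 CPM against 84.1, 87.6 and 90.9 CPM (0.55, SE 0.064, adjusted p = 4.1e-06). PSMB1 was lower (-1.01) and PSMA3 higher (1.02).

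Genes that handle drugs were split evenly, 9 of 18 higher in CAPAN-2 and 9 lower. ABCB1, the efflux pump P-glycoprotein, was low in both lines, at 2.9, 2.4 and 2.71 CPM in CAPAN-2 and 0.208, 0.228 and 0.0866 CPM in PANC-1 (3.94, SE 0.321, adjusted p = 1.2e-07). SLC29A1, the nucleoside transporter that carries gemcitabine, was at 26.3, 27.5 and 28 CPM against 236, 232 and 248 CPM (-3.13), and CDA, which deaminates it, was at 16.3, 14.9 and 13.1 CPM against 0.202 CPM or less. The 2 lines therefore had opposite orders at the transporter and at the deaminase. The activating kinase gene DCK differed by 0.94, the pump gene ABCG2 by -6.53 and NT5E, the ectoenzyme CD73, by 2.79. Of 23 xenobiotic and antioxidant enzymes, 17 were higher in CAPAN-2 and 5 lower: ALDH3A1 (11.42), GPX2 (6.67), CYP3A5 (4.79) and NQO1 (2.16) were higher, with ALDH3A1 at 199 to 228 CPM in CAPAN-2 and at most 0.131 CPM in PANC-1, and GSTM3 (-5.59), HMOX1 (-4.93) and CYP1B1 (-2.26) were lower.

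Genes of fetal growth were mostly lower in CAPAN-2, 11 of 15 tested, with 4 higher and a median of -2.49. The let-7 antagonist gene LIN28B had no count in CAPAN-2 and was at 19.8, 20 and 18.4 CPM in PANC-1, and the imprinted RNA MEG3 was at most 0.0987 CPM against 34.5 to 37.6 CPM. The RNA-binding protein gene IGF2BP1 (-4.09) and the chromatin protein gene HMGA2 (-2.60) were lower, and HMGA1 (0.83) and the imprinted genes PEG10 (1.47) and MEST (1.11) higher. Of the S100 calcium-binding family, 8 of 12 were higher in CAPAN-2, among them S100A14, at 51.6 to 59.6 CPM against at most 0.0692 CPM, and S100P (6.8), and 2 lower, S100A4 (-1.75) and S100A3 (-2.2). Of 22 cancer-testis genes 1 could be tested, DDX43 (-1.2).

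The label of pancreatic duct origin was checked against markers. The summed level of 15 duct markers was 13197 to 14297 CPM in CAPAN-2 and 5626 to 5653 CPM in PANC-1, and of 13 tested 10 were higher and 3 lower in CAPAN-2. Most of both sums came from the simple-epithelial keratins KRT8, KRT18 and KRT19, with means of 2681, 1775 and 887 CPM in PANC-1. Of the other markers, SLC12A2 had means of 445 CPM in CAPAN-2 and 135 CPM in PANC-1. CFTR, CA2, AQP1 and SPP1 had means of 1.9 CPM or less in both lines. Acinar markers were close to absent in both lines, summing to 2.93 to 3.96 CPM and 2.51 to 3.36 CPM over 18 genes, with 7 at 0 in all 6 libraries. Neural markers summed to 61.7 to 63.9 CPM in CAPAN-2 and 849 to 896 CPM in PANC-1, 7 of 10 tested being lower in CAPAN-2. Most of the PANC-1 sum came from the adhesion gene L1CAM (-9.15), TUBB3 (-3.43) and NES (-6.28), with means of 357, 234 and 180 CPM there. GAP43 (5.06) and UCHL1 (1.72) were higher in CAPAN-2 from means under 1 CPM in both lines. The neural genes STMN2, DCX and ELAVL4 had no count in any of the 6 libraries. Fibroblast markers summed to 14.6 to 15.7 CPM and 182 to 198 CPM, of which COL3A1 made up 143 to 153 CPM in PANC-1, while the fibroblast genes COL1A2, DCN, LUM and PDGFRA had means of 0.041 CPM or less in both lines. Of 19 endocrine markers 8 were tested, 2 higher and 4 lower, and the granule gene CHGB had no count in CAPAN-2 and 9.79 to 10.6 CPM in PANC-1. The lung list gave 3 of 4 tested genes higher in CAPAN-2, led by the cilia factor FOXJ1 at 79.1 to 84.0 CPM against 0.359 to 0.664 CPM. Endothelial, blood and colon lists gave 1 of 2, 2 of 5 and 4 of 6 tested genes higher and 1, 1 and 2 lower. The part of these marker differences in the other results was not tested, and in bulk RNA fewer cells of a type cannot be told from less RNA per cell.

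Among the 8 untreated lines, CAPAN-2 had the highest mean of CDH1, at 1204 ± 71.8 CPM (SD, n = 3), close above the colon line DLD-1 at 1038 ± 43.3 CPM (SD, n = 3). PANC-1, at 50.5 ± 1.21 CPM (SD, n = 3), lay below the lung line H-23 at 101 ± 4.8 CPM (SD, n = 3) and above the other 4. The ranges of neighbours in this part of the order did not overlap: 1129 to 1272 CPM in CAPAN-2 and 1008 to 1087 CPM in DLD-1. For VIM, PANC-1 at 2385 CPM was second to H-1299 at 3549 CPM, and CAPAN-2 at 12.7 CPM was seventh, above DLD-1 at 0.658 CPM. For ZEB1, PANC-1 at 59.9 ± 2.28 CPM lay beside H-1299 at 59.5 CPM, and RKO at 761 CPM was the highest. SPARC was at 222 CPM in PANC-1 and at 1.38 CPM or less in the other 7 lines.

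The same lines under carfilzomib gave 6 other libraries, which share the lines and any handling that went with a line. Agreement between the sets is therefore a description and no independent check. With carfilzomib, 83.1% of 17614 genes tested were called, 41% higher and 42.1% lower in CAPAN-2. Of the 7043 genes higher in DMSO, 5873 (83.4%) were higher with carfilzomib too, and of the 7093 lower, 6101 (86.0%) were lower; these are 81.4% and 82.2% of the carfilzomib calls. Across the 17202 genes tested in both, the differences had a correlation of 0.954, as a description across genes, which are not independent replicates. Calls in opposite directions were made for 3.30% of genes. The test of whether the difference between lines itself changed with the drug called 38.2% of 18455 genes. Of the 28 list members called in opposite directions, 7 were cell-cycle genes: MCM4 went from 1.17 in DMSO to -0.43 with carfilzomib, MCM6 from 0.64 to -1.15, MCM7 from 0.44 to -0.74 and E2F1 from 0.57 to -1.43.

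**Figure D5:**
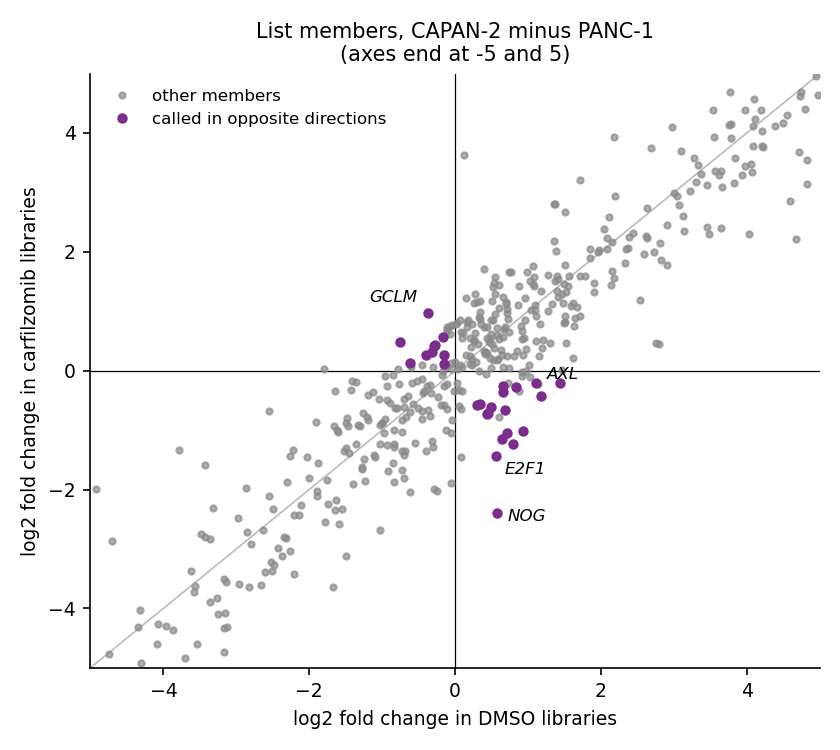
Difference between the lines (log2, CAPAN-2 minus PANC-1) in DMSO on the x axis and with carfilzomib on the y axis for 592 list and marker genes, of which 127 lie outside the axes. Most points lie along the diagonal; the 28 genes called in opposite directions are set apart, with E2F1 at 0.57 and -1.43 among them.

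CDH1 differed by 5.13 with carfilzomib (4.54 in DMSO), KRT7 by 9.35 (9.57) and EPCAM by 4.69 (4.75). The difference was larger with the drug at VIM, -8.85 against -7.59, and it also moved at AXL, from 1.11 to -0.21, at NT5E, from 2.79 to 0.45, and at HMOX1, from -4.93 to -2.0. EGFR, not called in DMSO, differed by -0.60 with carfilzomib, and HSPA8 by 0.79.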

How the data were processed

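Total RNA was extracted with Qiazol and made into stranded TruSeq libraries, per the labels' protocols, and the 6 DMSO libraries of CAPAN-2 and PANC-1 were taken from a matrix of 48. The authors deposited raw read counts per gene with no normalization. The submitters' processing notes name bcl2fastq 2.19, FastQC, Trimmomatic, HISAT2, DESeq2 and the build hg38; the counting program, the annotation and the use of strand are not given in the sources used here, so overlapping and antisense genes are uncertain. Of 33892 entries, 29680 (87.6%) matched a GENCODE 29 identifier for positions, and 4803 shared an identifier with another entry and are uncertain.

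Counts were fitted with edgeR 4.0.16 (R 4.3.3): TMM factors, filterByExpr, glmQLFit and glmQLFTest on the 6 libraries, with Benjamini-Hochberg adjustment over the 17658 genes tested and a threshold of 0.05. The SE is the log2 fold change divided by the square root of F. The carfilzomib libraries and the other pairs were fitted alike, and an interaction was fitted on 12 libraries. No replicates were merged, since the chi-square of each pair was 3.33 to 16.2 times its degrees of freedom. Totals were 27901521 to 45865683 counts. The scripted tests were tested on simulated counts.

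Named genes were the 12 with the largest change in each direction at a mean of at least 200 counts, up to 6 called members per direction and the first 3 of each list, a set of marker genes, and the 5 highest silent genes per line; a few others are given to describe a list. The members and lists were chosen with earlier results of these data known. Alternatives were DESeq2 1.42.0 with its size factors and Wald test, library totals, other count filters, a null fold of 1.5, all 48 libraries in 1 fit, thinning, a replicate block and leaving out each library. Entries sharing an identifier were summed or left out as alternatives chosen after seeing the data.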

Additional observations from a re-analysis of the deposited data

Results flagged for a closer look

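For 16 list genes and the HSPA1A and HSPA1B sum, the difference between CAPAN-2 and PANC-1 was called in opposite directions in DMSO and with carfilzomib, and the interaction, fitted with edgeR's quasi-likelihood test on 12 libraries, was called with a size of at least 1 on the log2 scale. The values below are the interaction, positive where the drug moved the difference toward CAPAN-2.

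Genes of DNA replication and the start of S phase moved toward PANC-1: E2F1 by -1.95, the cyclin gene CCNE2 by -1.90, the helicase genes MCM6 by -1.75, MCM4 by -1.55 and MCM7 by -1.13, and the kinase gene CDK2 by -1.05. E2F1 had means of 86.5 CPM in DMSO and 22.6 CPM with the drug in CAPAN-2, and 58.3 and 60.6 CPM in PANC-1. MCM4 had means of 402 and 130 CPM in CAPAN-2 and 178 and 175 CPM in PANC-1.

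Other genes with the same direction were NOG by -2.92, the enzyme gene CYP24A1 by -1.99, WNT7B by -1.72, ETV4 by -1.61, SFRP1 by -1.30, AXL by -1.28, ROR1 by -1.11 and the chromatin gene HMGA1 by -1.06. AXL had means of 532 and 193 CPM in CAPAN-2 and 246 and 224 CPM in PANC-1.

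The genes that moved toward CAPAN-2 were the glutathione synthesis gene GCLM by 1.40, MUC5B by 1.28 and the HSPA1A plus HSPA1B sum by 3.42. GCLM had means of 40.9 and 152 CPM in CAPAN-2 and 53 and 77.2 CPM in PANC-1. MUC5B was near the floor throughout, at 1.75 and 3.77 CPM in CAPAN-2 and 2.98 and 2.69 CPM in PANC-1.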

How the results depend on the processing

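The calls of DMSO genes stayed within 1.5 times their counts under every alternative run except a null fold change of 1.5, which gave 4491 higher and 4581 lower in CAPAN-2, and 4645 and 4947 with carfilzomib. Fewer genes can pass that test by construction. Library totals in place of TMM moved the median of all genes from -0.01 to -0.11 and gave 6432 higher and 7758 lower. A stricter rule for silent genes, at most 1 against at least 100 counts, left 107 silent in PANC-1 and 94 in CAPAN-2. With the entries of an identifier summed, HLA-B (2.29), HLA-C (1.94) and TAP2 (-0.37) reversed. For 345 named genes, 5798 of 5845 recomputed values kept direction and call, 42 lost the call, 2 gained it and 3 reversed. Leaving out a library ended calls for CXCL1 (0.39 to 0.69), OAS2 (-0.94 to -0.37), PSMD11 (-0.22 to -0.11), SOX9 (-0.25 to -0.14) and STAT2 (0.13 to 0.26).

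The labels number the replicates 1 to 3 in both lines. Deviations of same-numbered libraries had correlations of -0.0811, 0.0598 and -0.016, and those of other-numbered libraries -0.0874 to 0.108. No shared effect of the number was seen, which does not show how the libraries were handled. With the replicate block the counts were 6909 higher and 7000 lower in DMSO and 7079 and 7282 with carfilzomib. Depth limits what can be said of genes under about 0.1 CPM.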
